A study of Homo sapiens with 2 samples.

Results

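The nuclear-encoded subunits of the respiratory chain and of ATP synthase were examined in tumour spheroids. They were chosen by gene symbol among the protein-coding rows of the deposited table of all genes: symbols starting NDUFA, NDUFB, NDUFC, NDUFS or NDUFV without the assembly factors named NDUFAF, SDHA to SDHD, and symbols starting UQCR, COX4I, COX5, COX6, COX7, COX8 or ATP5. This gave 94 of 57773 gene rows, with 90 different symbols, since NDUFA7, NDUFB8, SDHD and UQCR11 each stand on 2 Ensembl identifiers. Spheroids were of MDA-MB-231, an established line derived from a triple-negative breast tumour, whose cells were kept in DMEM with 10% serum, penicillin and streptomycin. Control was 1 library with no further treatment named, and TGS24 was 1 library of spheroids that received TGS24, an agent named in the labels by this code alone, without dose or duration. The series was designed around genes of the MAPK12 pathway. With 1 library a group, every difference below is one between these libraries and cannot be assigned to the treatment, and fewer cells of a type and less RNA per cell cannot be told apart.

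The respiratory chain sits in the inner mitochondrial membrane. Complex I takes electrons from NADH and complex II from succinate, coenzyme Q and cytochrome c carry them onward, complex III passes them between these carriers, and complex IV hands them to oxygen. Complexes I, III and IV pump protons, and complex V, the ATP synthase, lets them flow back to make ATP. Most subunits are encoded in the nucleus, translated in the cytosol and imported, while a small core is encoded in mitochondrial DNA, and the complexes assemble with fixed numbers of each subunit.

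Regular gene rows held 8570632 reads in Control and 16145121 in TGS24. Wherever 2 values follow each other below, Control comes first. Protein-coding genes took 41.3% and 54.1% of these reads, the 7SL RNA gene RN7SL1 41.1% and 31.6%, and the 7SK RNA gene RN7SK 13.9% and 10.4%. Of the markers of MDA-MB-231 cells, 8 had usable rows and 7 of these had at least 20 reads, with 4084 and 3585 reads in sum over the 8. Of these 7, 5 were at least 2-fold lower in TGS24, where 6.31% of all genes with at least 20 reads were. The median log2 ratio of the 7 was -1.38. The rows of VIM and CD44 were irregular and were left out of these values. VIM as it stands, at 11763 and 15785 reads, exceeds the sum of the 8. Markers of luminal cells, without the irregular row of GATA3, summed to 162 and 208 reads, of fibroblasts to 77 and 91, and of endothelial cells to 33 and 42. These are unscaled sums of libraries of unlike depth. After TMM scaling the log2 ratios of the sums were -0.58 from -1.02 to -0.15, -0.70 from -1.36 to -0.05, and -0.60 from -1.60 to 0.43. That of the MDA-MB-231 markers, without VIM and CD44, was -1.13, and that of the leukocyte markers 0.30 from -0.32 to 0.95. Leukocyte markers summed to 63 and 149 reads, with CD68 at 0 in both libraries. Red cell markers summed to 5880 and 12378 reads, a log2 ratio of the scaled sums of 0.13. Haemoglobin gene HBB of this list had 4860 and 10453 reads and a ratio of 0.16, and HBA2 788 and 1502 and -0.01. ALAS2 went the other way, with 60 and 48 reads and a ratio of -1.22 from -2.11 to -0.44. The part of the marker shift or of RNA from other cells in any value below was not tested.

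The subunit genes fell into a few with many reads and a majority with almost none. No value used here tells whether this split comes from the cells, the library or the counting of reads, so a low read count below is not shown to be a low RNA level. Over both libraries 20 of the 94 rows had at least 100 reads, 8 had between 20 and 99, 48 had between 1 and 17, and 18 had none. Among all protein-coding rows 44.1% had at least 20 reads, against 29.8% of the respiratory chain rows. All members summed to 22403 and 40524 reads, which is 0.261% and 0.251% of all reads and 0.633% and 0.464% of the protein-coding reads. The 20 members with at least 100 reads held 98.8% of the Control and 99.0% of the TGS24 reads of all members. ATP5A1 and ATP5B, subunits of the catalytic head of ATP synthase, alone held 39.2% and 33.6%.

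**Figure D1:**
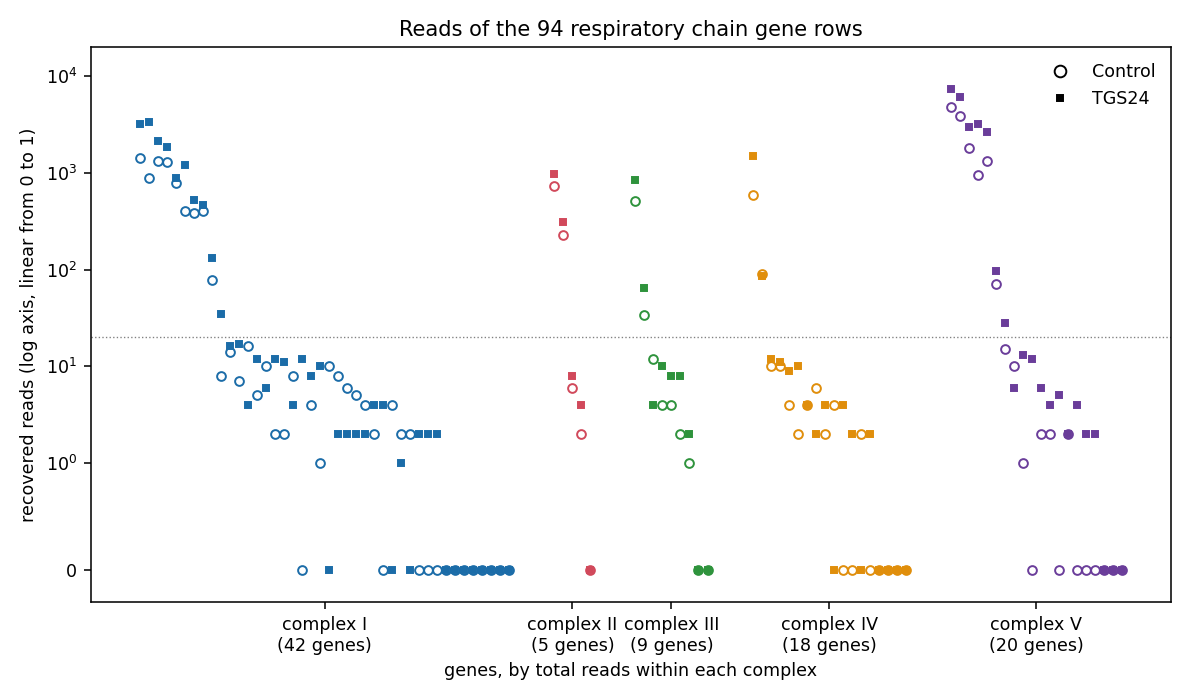
Recovered reads of each of the 94 gene rows on a logarithmic axis that is linear from 0 to 1, by complex and ordered by total reads, with open circles for Control and squares for TGS24. The dotted line marks 20 reads; 20 rows stand at 100 reads or more in sum and 66 under 20.

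Both kinds of gene were found within the same complex. Complex I contains a conserved core of catalytic subunits, among them NDUFV1, NDUFV2, NDUFS1, NDUFS3, NDUFS7 and NDUFS8, on which electrons pass from the flavin to coenzyme Q. Levels of different genes are given as reads per kilobase of annotated exon and per 1000000 TMM-scaled reads. The 51-kDa flavoprotein gene NDUFV1 had levels of 31.2 in Control and 25.7 in TGS24. NDUFS3 had levels of 12.9 and 7.83, and NDUFS1, which carries several iron-sulfur clusters, 8.62 and 17.0. NDUFS8, NDUFS7 and NDUFV2 had far fewer reads in both libraries: NDUFS8 had levels of 0.183 and 0.230, NDUFS7 of 0.0626 and 0.0651, and NDUFV2 was at 0 and 0.0452. NDUFV2 rests on 0 and 2 reads, and 0 read pairs in a library allow up to about 3 pairs.

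The other complexes showed the same contrast between subunits of 1 assembly. In complex II the catalytic subunits SDHA and SDHB had levels of 10.4 and 11.0 per kilobase in Control and 7.22 and 7.76 in TGS24. The membrane anchors SDHC and SDHD, which bind coenzyme Q, had levels of 0.0500 and 0.0831 in Control and 0.0346 and 0.0863 in TGS24. In complex III the core protein gene UQCRC1 had levels of 18.6 and 16.1, while UQCRFS1, the Rieske iron-sulfur protein that takes electrons from reduced coenzyme Q, had 0.407 and 0.0705. In complex IV the level of COX5A was 49.2 and 65.6, against 0.246 and 0.153 for COX4I1, its partner in the nuclear-encoded ring around the catalytic core.

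Annotated properties of the genes were set beside these classes. The median annotated exon length was 3309 bases among the 20 members with at least 100 reads and 2091 bases among the 66 with fewer than 20, and the ranges overlapped, from 1176 to 12268 bases and from 156 to 14160. The median GC content was 48.2% and 49.2%. More than 20% of the exon sequence was shared with another annotated gene on either strand in 1 of the 20 members with at least 100 reads and in 24 of the 66 with fewer than 20. The submitters' processing notes name featureCounts, but how reads in shared exons were handled is not given in the sources used here. Pseudogenes named after a member existed for 8 of the 20 and for 28 of the 66. The part of length, shared exons or pseudogenes in the read counts was not tested.

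Promoters of 3 members are shown because a promoter with the recognition letters of NRF1 or GABP, a pair of transcription factors known for activating respiratory genes, was found among members with many reads and among members with few. The sequences are from RefSeq on GRCh38.p14, run 5′ to 3′ on the gene's strand from 250 bases before to 50 bases after an annotated start, and capitals mark the NRF1 letters GCATGCGC or the GABP letters CCGGAAGT on either strand. NDUFS1 had the highest ratio of TGS24 over Control among members with at least 100 reads, NDUFA6 one of the lowest, and COX5B had 2 and 10 reads. The NDUFS1 window is chr2:206159395-206159694 on the minus strand, that of NDUFA6 chr22:42090723-42091022 on the minus strand, and that of COX5B chr2:97645812-97646111 on the plus strand.
NDUFS1: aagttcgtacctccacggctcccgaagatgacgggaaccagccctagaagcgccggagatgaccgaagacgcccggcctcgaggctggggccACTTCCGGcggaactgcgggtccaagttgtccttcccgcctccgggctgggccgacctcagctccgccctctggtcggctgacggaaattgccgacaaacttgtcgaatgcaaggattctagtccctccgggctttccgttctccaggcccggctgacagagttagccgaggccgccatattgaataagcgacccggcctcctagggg
NDUFA6: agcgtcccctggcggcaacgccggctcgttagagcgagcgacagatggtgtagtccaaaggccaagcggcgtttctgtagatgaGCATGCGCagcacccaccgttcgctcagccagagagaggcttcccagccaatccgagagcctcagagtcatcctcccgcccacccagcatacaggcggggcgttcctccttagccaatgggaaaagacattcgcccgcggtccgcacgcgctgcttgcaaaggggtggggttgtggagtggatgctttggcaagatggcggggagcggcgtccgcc
COX5B: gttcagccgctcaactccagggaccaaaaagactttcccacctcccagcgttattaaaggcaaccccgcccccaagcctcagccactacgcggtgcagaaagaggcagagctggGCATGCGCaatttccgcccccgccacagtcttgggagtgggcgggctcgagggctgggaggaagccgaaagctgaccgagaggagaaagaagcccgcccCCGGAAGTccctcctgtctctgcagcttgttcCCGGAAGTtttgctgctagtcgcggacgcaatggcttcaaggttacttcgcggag

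A promoter window was at hand for 69 of the 94 rows. The NRF1 letters were in 13 of these, or 18.8%, and in 4.26% of the 15842 windows of protein-coding genes. The GABP letters were in 9, or 13.0%, against 6.19%. Of the 17 members with a window and at least 100 reads 4 held the NRF1 letters and 1 the GABP letters, and of the 44 with fewer than 20 reads 8 held the one and 8 the other. A match is a description of the letters, and the binding of either factor was not measured.

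Across the chain no subunit with at least 100 reads differed 2-fold between the libraries, though NDUFS1 and COX7A2L lay near that threshold and passed it with some other settings. Of the 28 members with at least 20 reads none was at least 2-fold higher and 1 was at least 2-fold lower in TGS24 with an interval that left out 0. Over all 10081 tested genes 12.7% were higher and 6.31% lower by this rule, 19% in either direction. The log2 ratio of TGS24 over Control was taken after scaling with edgeR's TMM factors, with a 95% Clopper-Pearson interval on read pairs that covers counting error only. The median log2 ratio was -0.28 over these 28 members and -0.004 over all tested genes. With no filter on low counts the members' median turned to 0.12 and that of all genes was 0.16. The smaller differences were resolved by depth in many subunits: the interval lay wholly above 0 in 5 members and wholly below 0 in 12, where 23.7% and 17.2% of all tested genes did so. Among the 20 members with at least 100 reads, 0 were called, against 24.6% of the 5533 genes of that depth, 20.2% higher and 4.45% lower. Their interval lay above 0 in 5 and below 0 in 11, against 40.3% and 23.9% of those genes.

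**Figure D2:**
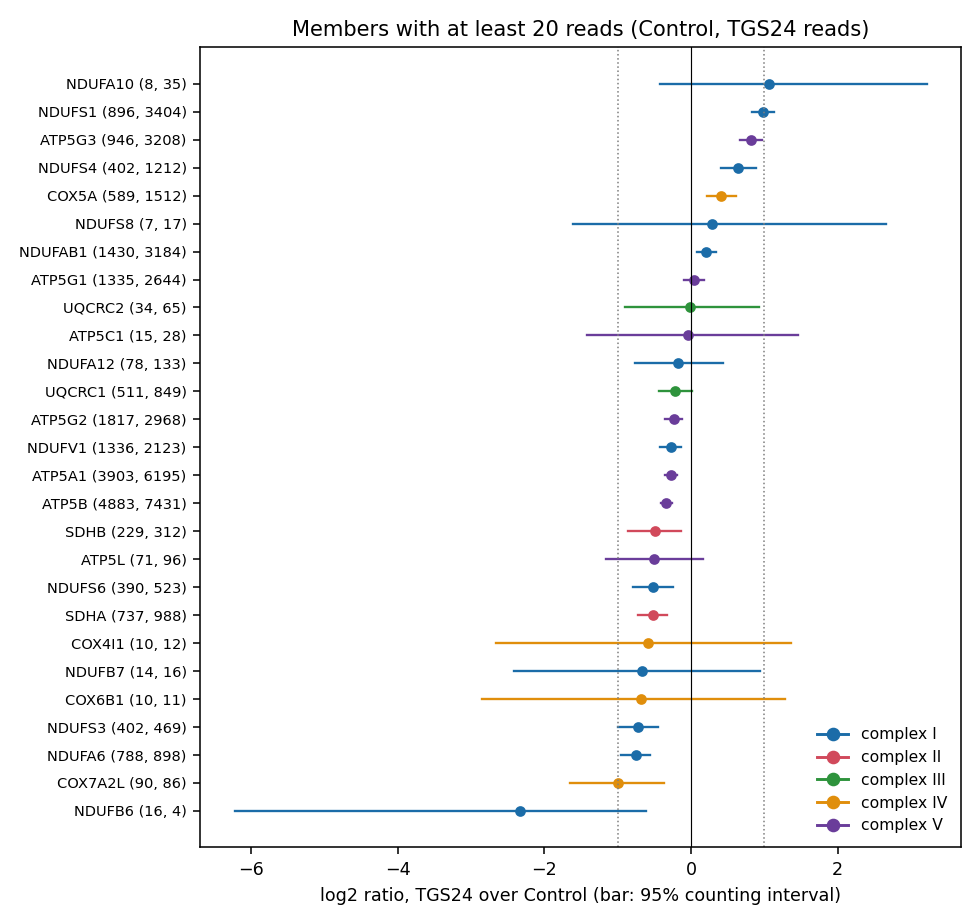
Log2 ratio of TGS24 over Control for members with at least 20 reads that are named in the text, with 95% counting intervals and the reads of each library beside the symbol; dotted lines mark 2-fold. NDUFS1 stands highest among members with at least 100 reads, at 0.98, and NDUFB6, on 16 and 4 reads, stands lowest, at -2.33.

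In complex I the subunits did not share a direction. NDUFS1, a core subunit of the electron input arm, had 896 and 3404 reads. Its log2 ratio was 0.98, from 0.83 to 1.13, at 1.12 with median-of-ratios factors and 0.44 within GC classes. NDUFS4, an accessory subunit of that arm in which mutations cause Leigh syndrome, had 402 and 1212 reads, a ratio of 0.64 from 0.41 to 0.88, at 0.10 within GC classes. NDUFAB1, the mitochondrial acyl carrier protein that is also part of complex I, had the most reads of the complex over both libraries, 1430 and 3184, and a ratio of 0.21 from 0.08 to 0.34. These 3 were the members of complex I whose interval lay above 0.

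Of the lower ones, NDUFA6, an accessory subunit, had 788 and 898 reads, a log2 ratio of -0.76 from -0.96 to -0.56. The core subunit NDUFS3 had 402 and 469 reads, a ratio of -0.72 from -1.001 to -0.44. NDUFS6, an accessory subunit that binds zinc, had 390 and 523 reads and a ratio of -0.52, from -0.80 to -0.25, at -0.19 within GC classes. The core subunit NDUFV1 stood closer to 0. It had 1336 and 2123 reads and a ratio of -0.28, which turned to 0.12 when ratios were centred within classes of GC content and to 0.15 within classes of GC content and length.

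Between subunits of this complex the differences were larger than the counting error. The log2 ratio of NDUFS1 exceeded that of NDUFS3 by 1.70, with an interval from 1.39 to 2.01, and that of NDUFV1 by 1.26, from 1.05 to 1.46. NDUFS4 exceeded NDUFS6 by 1.17, from 0.82 to 1.52. After centring within GC classes these differences were 1.21, 0.32 and 0.29. In all, 8 such pairs of genes were compared, chosen with their ratios known.

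The remaining complex I genes had too few reads to resolve a difference of this size. NDUFA12 had 78 and 133 reads and a log2 ratio of -0.17, from -0.77 to 0.43. NDUFA10 had 8 and 35 reads and a ratio of 1.06, but its interval ran from -0.43 to 3.21. NDUFB7, on 14 and 16 reads, and NDUFS8, on 7 and 17, also had intervals that held 0. NDUFB6, a subunit of the membrane arm, was the single member called lower, with 16 and 4 reads and a ratio of -2.33 from -6.22 to -0.62. Its 20 reads are the minimum that the filter on low counts let through.

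Another 21 complex I rows had between 2 and 17 reads in sum. The largest of these was NDUFB8, with 5 and 12 reads. NDUFB11 had 0 and 12, NDUFA8 10 and 0, and NDUFB2 1 and 10. NDUFA4, first described in complex I and now placed in complex IV, had 2 and 11 reads, and its paralog NDUFA4L2 had 8 and 4. NDUFB5, NDUFA5, NDUFS7, NDUFB10, NDUFV3, NDUFB9, NDUFA9, NDUFS5, NDUFB3, NDUFB4, NDUFA2, NDUFA1, NDUFA11, NDUFA3 and NDUFV2 made up the rest. No read fell on NDUFA13, NDUFB1, NDUFC1, NDUFC2, both NDUFA7 rows, the second NDUFB8 row or the NDUFC2-KCTD14 readthrough row.

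Complex II, which also serves in the tricarboxylic acid cycle, was lower in TGS24 in SDHA and SDHB, its subunits with at least 20 reads. SDHA, the flavoprotein that oxidises succinate, had 737 and 988 reads and a log2 ratio of -0.52 from -0.72 to -0.32, at -0.19 within GC classes. SDHB, the iron-sulfur subunit, had 229 and 312 reads and a ratio of -0.50 from -0.86 to -0.14, at -0.35 within GC classes. The ratios of SDHA and SDHB differed by -0.02, with an interval from -0.42 to 0.38. SDHC had 6 and 8 reads, SDHD 2 and 4, and the second SDHD row none.

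In complex III neither measured subunit had an interval that left out 0. UQCRC1 had 511 and 849 reads and a log2 ratio of -0.21 from -0.44 to 0.02, which turned to 0.18 after centring within GC classes. Its partner UQCRC2 had 34 and 65 reads and a ratio of -0.01 from -0.90 to 0.93, which turned to 0.12 with median-of-ratios factors. UQCRFS1 had 12 and 4 reads, UQCR10 4 and 10, UQCRH 4 and 8, UQCRB 2 and 8, and UQCRQ 1 and 2, and both UQCR11 rows had none.

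In complex IV the measured subunits stood on both sides of 0. COX5A had 589 and 1512 reads and a log2 ratio of 0.41 from 0.22 to 0.61, and was the single one of the complex higher in TGS24 beyond counting error. COX7A2L, which takes part in joining complexes III and IV into supercomplexes, had 90 and 86 reads and a ratio of -0.99 from -1.65 to -0.38. It stood just short of 2-fold and passed that threshold with several other settings, at -1.20 within GC classes. COX4I1 had 10 and 12 reads and COX6B1 10 and 11, and both intervals held 0.

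Among the other complex IV rows COX7A2 had 4 and 9 reads, COX5B 2 and 10, COX7C 6 and 2 and COX6C 2 and 4. COX6A1P2, named as a pseudogene but listed as protein-coding, had 4 and 4. Forms restricted to muscle, testis or lung were at or near 0, namely COX6A2 at 0 and 2, COX7A1 at 2 and 0, COX8C at 0 and 2, COX4I2 at 4 and 0, and COX6B2 and COX7B2 at 0. The widely expressed forms COX8A, at 0 and 4, and COX6A1 and COX7B, at 0, had as few, while COX4I1, COX6B1 and COX7A2 had more reads than their tissue-restricted counterparts COX4I2, COX6B2 and COX7A1.

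In complex V the alpha and beta subunit genes of the catalytic head were covered deeply and were slightly lower in TGS24 with TMM scaling. ATP5B, the beta subunit that makes ATP, had the most reads of all members, 4883 and 7431, and a log2 ratio of -0.34 from -0.41 to -0.27, which was -0.07 within GC classes and 0.09 within classes of GC content and length. ATP5A1, the alpha subunit, had 3903 and 6195 reads and a ratio of -0.28 from -0.36 to -0.20. The ratios of ATP5B and ATP5A1 differed by -0.06, from -0.17 to 0.05. ATP5C1, the gamma subunit that turns inside the head, had 15 and 28 reads and a ratio of -0.04, which turned to 0.09 with median-of-ratios factors, and the delta and epsilon subunit genes ATP5D and ATP5E had 0 and 2 and 0 and 12 reads. ATP5L, a subunit of the membrane part, had 71 and 96 reads and a ratio of -0.50 from -1.17 to 0.16.

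The c subunit forms the ring that rotates in the membrane, and ATP5G1, ATP5G2 and ATP5G3 encode the same mature protein with different import sequences. ATP5G1 had 1335 and 2644 reads and a log2 ratio of 0.04 from -0.10 to 0.18, which turned to -0.12 with a minimum of 100 reads. ATP5G2 had 1817 and 2968 reads and a ratio of -0.24 from -0.36 to -0.12, which turned to 0.10 within GC classes. ATP5G3 had 946 and 3208 reads and a ratio of 0.82 from 0.67 to 0.97. ATP5G3 thus went from the fewest reads of the set in Control to the most in TGS24. Its share of the reads of the 3 genes was 23.1% in Control, with an exact interval from 21.3 to 25.0%, and 36.4% in TGS24, from 35.0 to 37.8%, while that of ATP5G2 was 44.3% and 33.7%.

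The ratio of ATP5G3 exceeded that of ATP5G2 by 1.05, from 0.86 to 1.24, and that of ATP5G1 by 0.78, from 0.58 to 0.98. The ratio of ATP5G1 exceeded that of ATP5G2 by 0.28, from 0.10 to 0.46. The transcripts differ in GC content, at 41.0% for ATP5G3, 54.7% for ATP5G1 and 57.2% for ATP5G2. Centred within GC classes the log2 ratios were 0.13, 0.38 and 0.10, so the difference between ATP5G3 and ATP5G2 was 0.03 and that between ATP5G3 and ATP5G1 turned to -0.24. Centred within classes of GC content and length the ratio of ATP5G3 was -0.03.

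**Figure D3:**
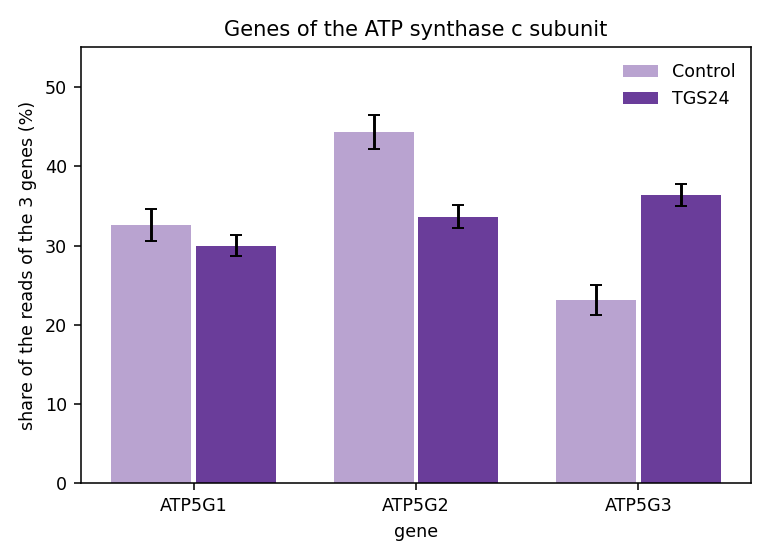
Share of the reads of ATP5G1, ATP5G2 and ATP5G3 held by each gene in the Control and TGS24 libraries, with 95% Clopper-Pearson intervals on read pairs. The share of ATP5G3 is 23.1% in Control and 36.4% in TGS24, and that of ATP5G2 44.3% and 33.7%.

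The other complex V rows had few reads. ATP5J had 10 and 6, ATP5O, the oligomycin sensitivity conferring subunit, 2 and 6, ATP5F1 2 and 4, ATP5I 2 and 2, ATP5J2 0 and 4 and ATP5H 0 and 2. ATP5S and ATP5SL, which share the start of the symbol but are not core structural subunits, had 0 and 5 and 1 and 13 reads. ATP5EP2, ATP5L2 and the ATP5J2-PTCD1 readthrough row had none.

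With TMM scaling, the reads summed over a complex differed little for complex I. They were lower in TGS24 for complexes II and V beyond counting error, and higher for complex IV, where COX5A held most of the reads. Other scalings and GC classes were not applied to these sums. With median-of-ratios factors the median of all genes moved from -0.004 to 0.13, a move close in size to the complex V ratio. Within GC classes ATP5A1 stood at -0.33 and ATP5B at -0.07, but ATP5G2 at 0.10, ATP5G3 at 0.13 and ATP5G1 at 0.38. The side of 0 on which complexes I and V lie is therefore not settled. Complex I had 844 reads per 1000000 in Control and 856 in TGS24, a log2 ratio of the sums of 0.02 from -0.04 to 0.08. Complex V had 1532 and 1386, a ratio of -0.14 from -0.19 to -0.10. Complex II had 115 and 80.4, a ratio of -0.52 from -0.69 to -0.34. Complex IV had 85.3 and 102, a ratio of 0.25 from 0.07 to 0.43. COX5A held 589 and 1512 of the 723 and 1658 reads of complex IV. The other measured subunits of complex IV had ratios below 0. COX7A2L stood at -0.99, and COX4I1 and COX6B1 at -0.58 and -0.68 with intervals that held 0. Complex III had 67.0 and 57.9, a ratio of -0.21 with an interval from -0.42 to 0.01.

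The ratios of members were read against GC content, with which ratios over all genes go together. Among genes with at least 100 reads, the Spearman rho of the log2 ratio with GC content was -0.68 over 5469 genes and -0.25 over the 20 members, where points share the same 2 libraries. In transcripts under 45% GC, 5 members had a median log2 ratio of 0.64, where all 2413 such genes had 0.83. From 45 to 50% GC, 7 members had a median of -0.28, against 0.10 for 1061 genes. At 50% GC and above, 8 members had a median of -0.31, against -0.37 for 1995 genes. COX7A2L and ATP5L, with 43.5% and 42.5% GC, were the members under 45% with ratios below 0, and NDUFS1, ATP5G3 and NDUFS4 were those above 0. After centring within GC classes the ratios of the 20 members ran from -1.20 for COX7A2L to 0.56 for COX5A, with a median of -0.12. ATP5L at -1.04, NDUFS3 at -0.77 and NDUFA6 at -0.61 were next lowest and NDUFS1 at 0.44 among the highest.

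**Figure D4:**
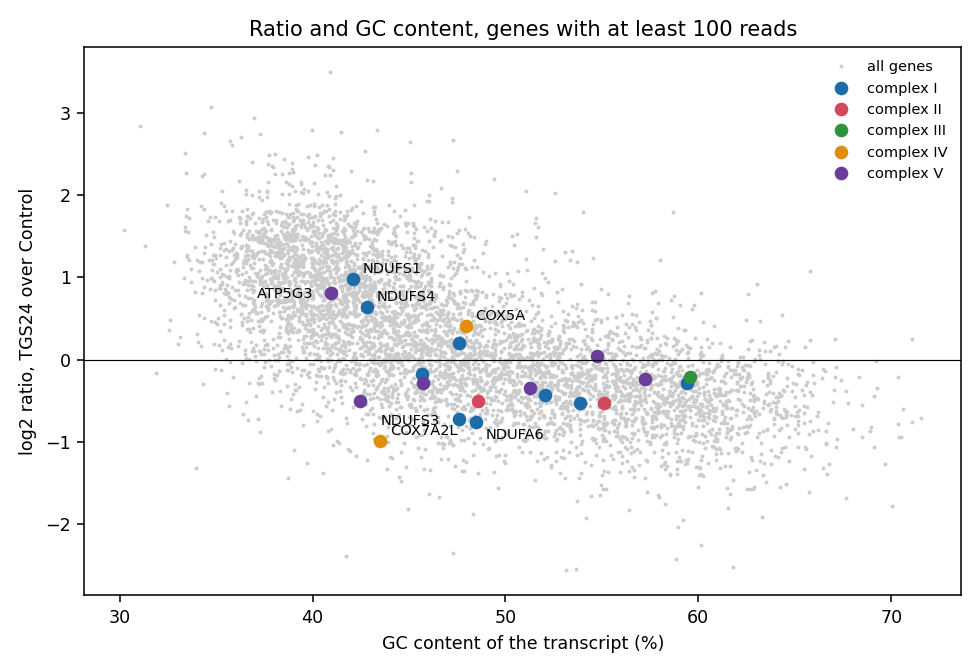
Log2 ratio of TGS24 over Control against transcript GC content in percent, for all genes with at least 100 reads in grey and the 20 members in the colour of their complex. Over all genes the rho is -0.68, and COX7A2L lies below most genes of like GC content, at -0.99.

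Some pseudogenes had more reads than the subunit gene they are named after. Of 132 pseudogene rows named after a member, 23 had a read and 5 had at least 20. UQCRFS1P1 had 150 and 130 reads, where UQCRFS1 had 12 and 4. NDUFV2P1 had 46 and 28 reads, where NDUFV2 had 0 and 2. COX5BP1 had 46 and 42 reads, where COX5B had 2 and 10. These 3 of the 5 with at least 20 reads were called lower in TGS24, where 6.31% of all tested genes were. The log2 ratios were -1.14 from -1.65 to -0.65 for UQCRFS1P1 and -1.57 from -2.73 to -0.64 for NDUFV2P1. COX5BP1 stood at -1.03 from -2.00 to -0.16.

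ATP5G2P1 had 300 and 798 reads and a log2 ratio of 0.46 from 0.19 to 0.75, beside -0.24 for ATP5G2. SDHAP1 had 9 and 12 reads. Reads of a gene and of a near-identical copy cannot be told apart where they match both, and the treatment of such reads is not given in the sources used here, so the levels of UQCRFS1, NDUFV2, COX5B and ATP5G2 are uncertain. The shares of the c subunit genes above were computed without ATP5G2P1.

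**Figure D5:**
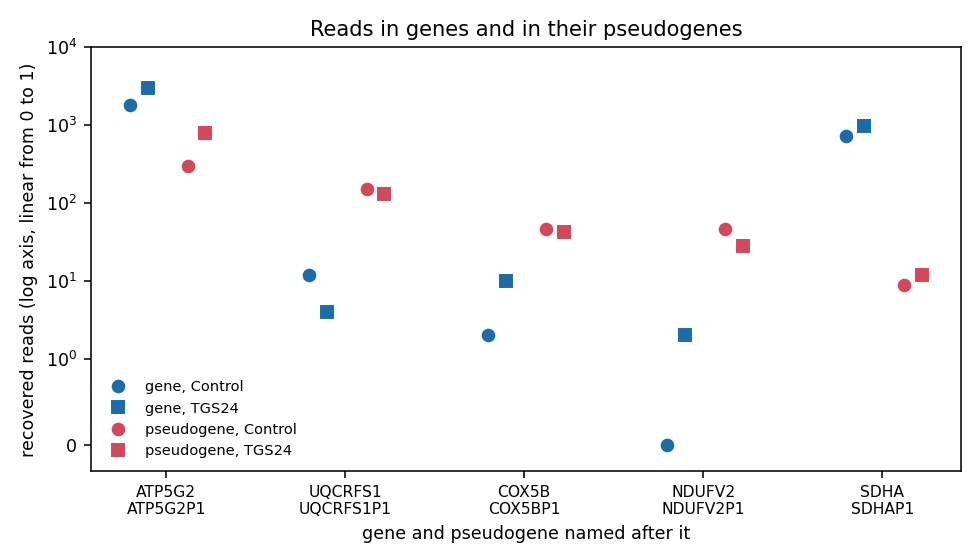
Recovered reads of 5 members (blue) and of the pseudogene named after each (red), on a logarithmic axis that is linear from 0 to 1, with circles for Control and squares for TGS24. UQCRFS1, COX5B and NDUFV2 lie below their pseudogenes in both libraries, ATP5G2 and SDHA above.

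The authors' deposited table of called genes held 8 members, 2 listed as higher and 6 as lower in TGS24. Of the 17133 rows of the authors' deposited table of filtered genes, 1.9% were listed as higher and 3.35% as lower, and 58 members stood in that table. Those listed as higher were NDUFB2 and ATP5SL, and those listed as lower were COX7C, NDUFB10, NDUFB9, NDUFV3, NDUFB6 and UQCRFS1. They rest on 7 to 20 reads over both libraries. Low counts were common among all called genes: of the 861 regular rows of the table of called genes, 61.8% had fewer than 20 reads. In the authors' deposited table NDUFB10 stands at 7.75 and 1.01 with a log2 value of -2.94, which corresponds to 8 and 2 reads and a counting interval from -8.57 to 0.39. For 6 of the 8 the interval held 0, the exceptions being NDUFB6 and UQCRFS1. None of the 20 members with at least 100 reads is in that table.

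The mitochondrially encoded partners of these subunits had almost no reads. The 13 messenger RNAs of mitochondrial DNA had 7 and 8 reads in sum, with MT-CO1, MT-CO2, MT-ND1 and MT-ND4 at 0 in both libraries. Cytochrome c gene CYCS had 6 and 12 reads. Every cell with mitochondria uses these messenger RNAs, and whether the library or the counting left them out was not tested, so no ratio of nuclear to mitochondrial subunit RNA is given.

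Genes that serve the chain were described from lists. Of 6 measured complex I assembly factors, 4 of complex III and 10 of complex IV, none was called. That is, none was at least 2-fold apart with an interval that left out 0, where 19% of all tested genes were. UQCC2, a factor for complex III, had 338 and 366 reads and a log2 ratio of -0.83 from -1.14 to -0.52, at -0.49 within GC classes. LRPPRC, which stabilises mitochondrial messenger RNAs, had 85 and 305 reads and a ratio of 0.89 from 0.40 to 1.42, at 0.34 within GC classes. COX17, the copper chaperone of complex IV, had 446 and 623 reads and a ratio of -0.46 from -0.72 to -0.21. ATPAF1, an assembly factor of the ATP synthase head, had 72 and 274 reads and a ratio of 0.97 from 0.44 to 1.55. Among 9 measured genes of coenzyme Q the hydroxylase gene COQ6 was 3.86-fold lower, on 64 and 30 reads, a gene named here after its value was seen, and the other 8 were not called.

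Of 17 tricarboxylic acid cycle genes, all with at least 20 reads, 1 was called higher and none lower. Of all tested genes 12.7% were called higher and 6.31% lower. SUCLA2, a subunit of succinyl-CoA ligase, had 408 and 1686 reads and a log2 ratio of 1.10 from 0.88 to 1.33, at 0.56 within GC classes. DLD, the shared dehydrogenase subunit, had 861 and 3096 reads and a ratio of 0.90, at 0.22 within GC classes. The list median was -0.20, beside -0.004 for all tested genes.

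In the list of mitochondrial biogenesis and transcription genes, 2 of 12 measured were called higher, where 12.7% of all tested genes were. The list also holds genes that are not transcription factors, among them POLG and SSBP1. GABPA, the DNA-binding subunit of GABP, had 105 and 472 reads and a log2 ratio of 1.21 from 0.79 to 1.68, and its partner GABPB1 90 and 445 reads and 1.35 from 0.89 to 1.86. Within GC classes these stood at 0.36 and 0.66. NRF1 had 145 and 269 reads and a ratio of -0.05 from -0.48 to 0.38. TFAM, which packages mitochondrial DNA, had 10 and 8 reads.

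In the import list 2 of 20 measured genes were called higher and 1 lower, beside 12.7% higher and 6.31% lower of all tested genes. The chaperonin HSPD1 had 1936 and 13064 reads and a log2 ratio of 1.81, at 1.60 within GC classes, TIMM9 had 63 and 336 reads and 1.45, at 0.91 within GC classes and so under the threshold, and TIMM17B 66 and 46 reads and -1.42, at -1.02. Of 6 measured carriers of ATP and phosphate and channels of the outer membrane none was called. The channel VDAC1 had 88 and 88 reads and a ratio of -0.93 from -1.58 to -0.31, at -0.98 within GC classes. VDAC3 had 941 and 2389 reads and a ratio of 0.40 from 0.24 to 0.56, at 0.19 within GC classes. The ADP/ATP carrier SLC25A5 had 5064 and 10444 reads and a ratio of 0.10 from 0.03 to 0.17, while SLC25A4 had 2 and 2.

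Beside other families of many subunits, the share of respiratory chain rows with reads lay between that of the mitochondrial and that of the cytosolic ribosomal proteins. At least 20 reads were found in 29.8% of its 94 rows, in 16.7% of 78 mitochondrial ribosomal protein rows, in 85.1% of 87 cytosolic ribosomal protein rows and in 78.0% of 50 proteasome rows. The median log2 ratios of the measured genes were -0.28 for the respiratory chain, -0.55 for 13 mitochondrial ribosomal proteins, -0.25 for 74 cytosolic ribosomal proteins and -0.31 for 39 proteasome subunits. Called in either direction were 1 of 28, 3 of 13, 4 of 74 and 4 of 39, beside 19% of all tested genes. No test of these differences was made.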

How the data were processed

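Total RNA from 1 Control and 1 TGS24 spheroid sample was isolated with Trizol, and Illumina sequencing gave paired reads, per the labels' protocols. Tools listed without role or order in the submitters' processing notes are featureCounts 1.5.2, STAR, Bowtie2 2.2.4, DESeq2 and Trimmomatic, with the build hg19. The authors deposited a normalized signal per gene and library, which the values show to be whole-read counts over a single size factor for each library, and beside it their ratio (fold change) and its log2 value. Dividing by the step of each column gave whole reads for 99.98% of values in both libraries, within a relative tolerance of 1e-06. Among genes with reads 75.3% of Control and 73.5% of TGS24 counts were even, so intervals were computed on reads divided by 2. In the table of all genes 48 irregular rows, none of a member, were left out: they repeated an identifier, stood out of order, were not whole reads or differed between the deposited tables.

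Ratios were scaled by TMM (edgeR 4.0.16, R 4.3.3), with a prior count of 2 and genes with at least 20 reads over both libraries. A gene was called at a log2 ratio of at least 1 in size with a 95% Clopper-Pearson interval that left out 0. Intervals between 2 genes used the normal approximation to log counts of pairs. Both cover counting error only. With 1 library per group no p-value is given. The design foresaw counts; recovered reads took their place. Exon lengths, shared exons and the GC content of the longest coding transcript came from GENCODE 29 on GRCh38 by Ensembl identifier. Promoters were matched by current symbol, the first listed start being used. Python 3.11.15, numpy 2.4.6, scipy 1.17.1, pandas 2.3.3 and matplotlib 3.10.9 were used, and the steps were tested on simulated data. Members, lists and alternatives were chosen with earlier results of these data known. Values in full were given, per complex, for called members, up to 4 members with the highest and 4 with the lowest ratio and those with most reads, and for up to 3 genes of each other list with at least 100 reads. CYCS, NRF1, TFAM, COQ6, SLC25A4, the mitochondrially encoded genes and other genes outside this rule were added for their roles or counts, after their values were seen. Values of 1 member are not reported here, though it is part of the counts, sums and medians.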

Additional observations from a re-analysis of the deposited data

How the results depend on the processing

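Each value was recomputed under 11 alternatives. Of 300 values of single members 291 kept their side of the 2-fold threshold and 9 passed it newly, and no called ratio changed sign. The count of members at least 2-fold higher, 0 as reported, was 1 with median-of-ratios factors, with library totals alone and with no filter on low counts, each time NDUFS1, at 1.12, 1.01 and 1.14. With COX7A2L added, the count of lower members, 1 as reported, was 2 with TMM over protein-coding genes alone. It was also 2, again with COX7A2L, within length classes and within classes of GC content and length. The count was 3 within GC classes, with COX7A2L and ATP5L, and 2 with no filter, with NDUFA8. With at least 100 reads it stayed at 1, but NDUFB6 was filtered out and COX7A2L was the member called. The median of all members, -0.28 as reported, turned to 0.12 with no filter, and that of complex III, -0.11 as reported, lay from 0.02 to 0.14 with median-of-ratios factors, with no filter, within GC classes and within classes of GC content and length. The complex V median, -0.24 as reported, was 0.20 with no filter and -0.42 with at least 100 reads, and the median of the carriers of ATP and phosphate, 0.15 as reported, was 0.29 with median-of-ratios factors, 0.27 with no filter and -0.050 with at least 100 reads. Fewer or more genes entered with the other filters, and other causes were not tested. The median of all genes moved to 0.13 with median-of-ratios factors and to 0.16 with no filter. Higher genes were 66.8% of all 2-fold genes, 78.0% with median-of-ratios factors, 75.5% with no filter and 46.8% within GC classes. No paired analysis was possible because each group held 1 library. For the 66 members under 20 reads depth limits any statement on a difference.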
